A study of Mus musculus with 2 samples.

Results

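Immediate early genes are switched on within minutes of a stimulus, without new protein synthesis, and 10 of them are described here: *Fos*, *Fosb*, *Jun*, *Junb*, *Egr1*, *Egr2*, *Ier2*, *Atf3*, *Nr4a1* and *Dusp1*. They were chosen by name, each had its own named row in both FPKM tables (fragments scaled to transcript length and library size), and they are 10 of 23951 gene symbols that the tables share. Optic nerves were taken at P12. Control animals were heterozygous for floxed *Tcf7l2* (Tcf7l2 c/+; OLig1-cre), *Tcf7l2*ΔHMG animals were homozygous for it (Tcf7l2 c/c; OLig1-cre), and both genotypes thus carried *Olig1*-Cre. Cre acts in the oligodendrocyte (OL) lineage and removes exon 11 with the HMG box that contacts DNA, so mutant messenger RNA can still be made. The RNA is from whole nerve, which also holds astrocytes, microglia and vessels, and recombination by cell type was not measured here. There was 1 library per genotype, the number of animals behind each is not given, and no difference below has a replicate check. *Tcf7l2* had 17.8 FPKM (16.7 to 18.9) in control nerve and 14.6 FPKM (13.9 to 15.4) in mutant nerve. That row covers the whole gene, so it does not check the loss of exon 11.

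Immediate early genes respond to calcium, growth factors, injury and stress through kinases that act on serum response factor (SRF) and cAMP response element-binding protein (CREB) already sitting at their promoters. Fos and Jun proteins pair to form the transcription factor AP-1, Egr proteins are zinc-finger factors, Nr4a1 is an orphan nuclear receptor, and Dusp1 is a phosphatase that shuts off the mitogen-activated protein kinases behind the response. In white matter they can be made by glia and by vessel cells, and they also respond to tissue handling. In peripheral nerve, Egr2 drives myelination by Schwann cells, whereas oligodendrocytes use other factors.

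Such genes are classically controlled through short response elements in their promoters. RefSeq windows of 300 bases, from 250 before to 50 after the annotated start in GRCm38.p6, were held for 8 of the 10 genes. *Egr1* and *Ier2* had no window and were not searched. The short core TGACG of the cAMP response element was found on either strand in 7 of these 8 genes, compared with 23.0% of 27025 genes in the same table. Its full form TGACGTCA, which contains the core on both strands, was found in *Dusp1* alone of the 8 (2.03% of all genes), and the CArG box that SRF binds in *Egr2* alone of the 8 (1.81% of all genes). The EGR site GCGNGGGCG was found in *Fosb* and *Nr4a1* (6.27% of all genes), the TATA box letters TATAAA in *Fos* and *Junb* (15.7%), the TCF/LEF core TCAAAG in *Junb* (18.2%), and the AP-1 site TGANTCA in none of the 8 (8.97%). The TATAAA match lay at −33 to −28 in *Fos* but at 1 to 6, on the annotated start itself, in *Junb*. The windows were also rich in G and C, from 58.7% to 72.3% for the 8 genes against a median of 52.7% over 32851 windows, and the part of base composition in these shares was not tested. The *Jun* window held none of the motifs searched. For *Egr2*, with 5 windows, any of them could count, and the window shown is the one that best fits the length of its row in the tables. A match is a run of letters, not a site shown to be bound. Sequence beyond the windows was not searched, so a window without a match does not show that the gene lacks the element.

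The windows of 5 genes are printed with the motif matches in capitals, since *Nr4a1* and *Dusp1* had the largest ratios among members above 1 FPKM, *Fos* and *Fosb* are paired relatives at very different levels, and *Egr2* holds the only CArG box found in the windows. They lie at chr15:101266596-101266895 (plus strand) for *Nr4a1*, chr17:26508423-26508722 (minus strand) for *Dusp1*, chr12:85473640-85473939 (plus strand) for *Fos*, chr7:19309996-19310295 (minus strand) for *Fosb* and chr10:67537619-67537918 (plus strand) for *Egr2*, all read 5′ to 3′ in the direction of the gene.
Nr4a1: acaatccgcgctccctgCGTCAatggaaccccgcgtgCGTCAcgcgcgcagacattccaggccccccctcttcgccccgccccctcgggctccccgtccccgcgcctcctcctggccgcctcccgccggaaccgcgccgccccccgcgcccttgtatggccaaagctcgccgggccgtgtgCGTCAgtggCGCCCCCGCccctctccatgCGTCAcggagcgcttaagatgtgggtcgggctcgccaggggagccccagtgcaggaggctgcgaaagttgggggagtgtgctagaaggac
Dusp1: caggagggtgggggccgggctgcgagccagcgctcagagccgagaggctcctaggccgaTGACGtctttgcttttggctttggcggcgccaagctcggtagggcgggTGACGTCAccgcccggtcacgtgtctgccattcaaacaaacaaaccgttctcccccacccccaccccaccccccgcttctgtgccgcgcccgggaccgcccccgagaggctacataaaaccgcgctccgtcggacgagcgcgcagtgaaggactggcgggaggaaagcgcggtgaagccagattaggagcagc
Fos: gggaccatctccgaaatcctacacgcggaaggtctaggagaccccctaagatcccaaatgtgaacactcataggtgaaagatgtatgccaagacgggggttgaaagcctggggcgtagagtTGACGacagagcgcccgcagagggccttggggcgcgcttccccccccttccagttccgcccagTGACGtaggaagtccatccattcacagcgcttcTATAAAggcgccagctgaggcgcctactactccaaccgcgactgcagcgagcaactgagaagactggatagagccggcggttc
Fosb: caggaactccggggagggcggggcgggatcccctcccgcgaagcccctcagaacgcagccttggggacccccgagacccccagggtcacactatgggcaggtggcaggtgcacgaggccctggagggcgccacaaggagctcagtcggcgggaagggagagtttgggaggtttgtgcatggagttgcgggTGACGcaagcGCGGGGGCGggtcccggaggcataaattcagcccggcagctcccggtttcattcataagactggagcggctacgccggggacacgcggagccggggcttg
Egr2: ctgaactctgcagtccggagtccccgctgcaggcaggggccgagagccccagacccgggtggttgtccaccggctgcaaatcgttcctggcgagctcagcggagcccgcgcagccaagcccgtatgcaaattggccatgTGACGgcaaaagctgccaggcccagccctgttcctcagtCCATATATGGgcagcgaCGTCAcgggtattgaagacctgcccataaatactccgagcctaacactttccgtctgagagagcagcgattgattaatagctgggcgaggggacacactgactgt

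**Figure D1:**
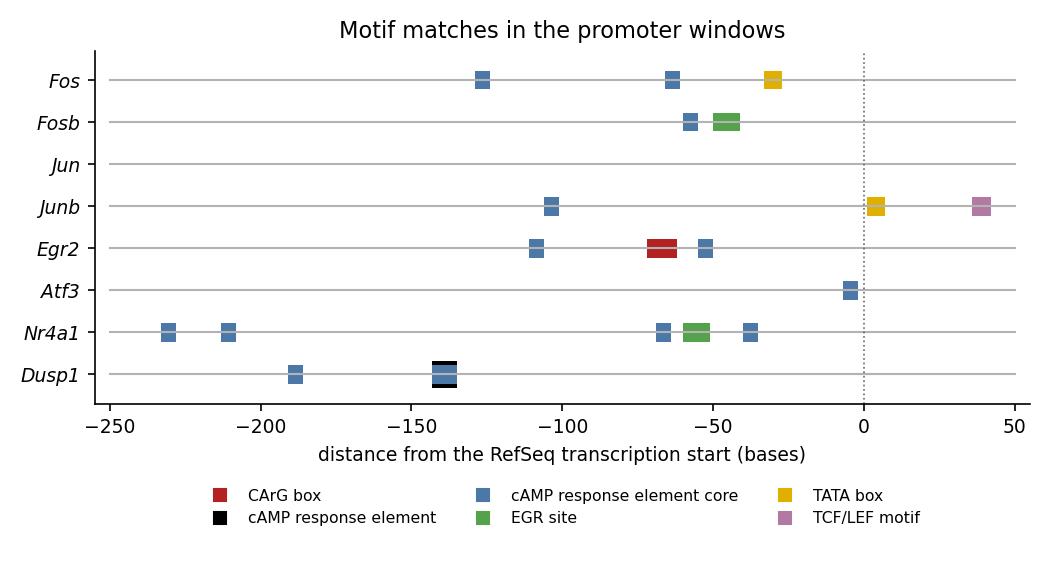
Motif matches in the promoter windows of the 8 genes with a window, by distance in bases from the RefSeq transcription start (0 marks the start, coloured boxes mark matches on either strand). All cAMP response element cores lie upstream of the start, the full element of *Dusp1* begins at −143, and the *Jun* line is empty.

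In the nerves, the 10 genes were present at low to moderate levels and 8 of them, those above 1 FPKM, differed by less than 1.5-fold between the libraries. Of the 10, 9 were higher in mutant than in control nerve and 1, *Atf3*, was lower, whereas 1 was higher and 9 were lower once both tables were brought to the same total over every row. Log2 ratios of mutant to control were computed after 0.1 was added to each FPKM, over 14199 genes that reached 1 FPKM in either library and whose Cufflinks status was OK both times. *Fosb* and *Egr2* were below that minimum, and the other 8 were compared with all genes. None of the 8 passed a fold change of 1.5 in either direction, beside 15.4% of all genes that passed it as higher (2185 genes) and 8.52% as lower (1210 genes) in the mutant. That split follows the scaling, since giving both tables the same total over every row gave 485 higher and 7182 lower genes. Of the 8, 7 lay above 0, as did 54.6% of all genes. Their median log2 ratio was 0.26, from −0.10 to 0.43, and the median of all genes was 0.047.

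The sum over the 10 genes was 91.3 FPKM in control nerve and 108.8 FPKM in mutant nerve, and *Jun* alone made up 40.8% and 39.5% of it. The order of levels in the control was *Jun*, *Fos*, *Dusp1*, *Egr1*, *Nr4a1*, *Ier2*, *Junb*, *Atf3*, *Egr2* and *Fosb*. In the mutant, only *Egr1* and *Nr4a1* and then *Egr2* and *Fosb* changed places. The Cufflinks intervals, which cover counting and assignment within 1 library, overlapped for each of these pairs in both libraries, and also for *Fos* with *Dusp1* and *Junb* with *Atf3*. *Jun* stood apart from *Fos*, *Dusp1* from its lower neighbour and *Atf3* from the lowest pair in both libraries.

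**Figure D2:**
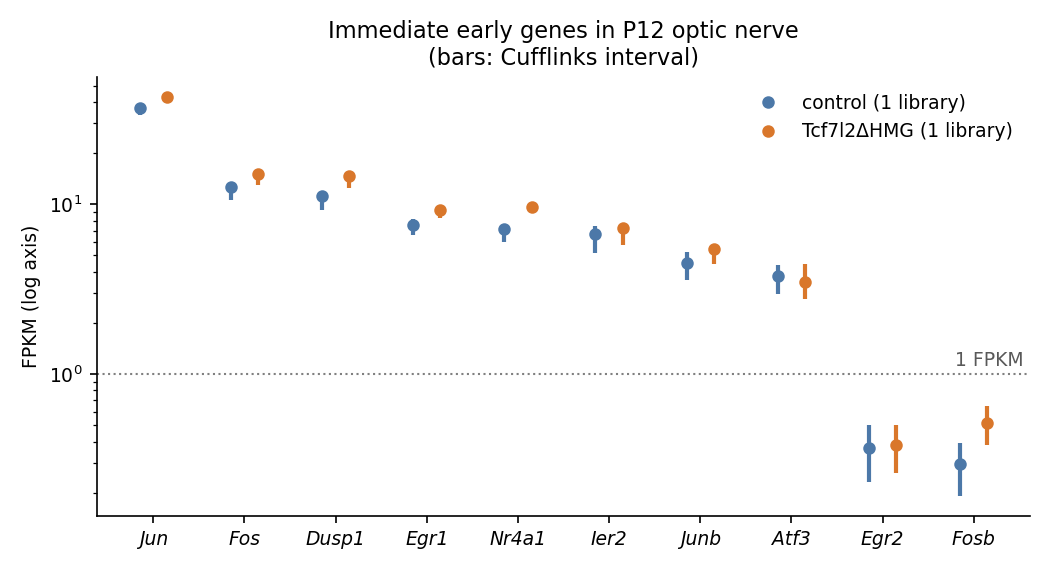
FPKM of the 10 immediate early genes in the control and the *Tcf7l2*ΔHMG library, 1 point per library on a log axis, with bars for the Cufflinks interval and a dotted line at 1 FPKM. *Jun* is highest (37.2 and 43.0 FPKM), *Egr2* and *Fosb* lie below 1 FPKM, and the points of each gene are close together.

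Among the subunits of AP-1, *Jun*, a basic leucine zipper protein, was the highest of the 10 genes in both libraries. It lies in the mm9 positions of the tables on chromosome 4 from 94715727 to 94718913 and had 37.2 FPKM in control nerve (interval 33.8 to 37.5) and 43.0 FPKM in mutant nerve (39.4 to 42.5). The mutant was 1.16-fold higher, a log2 ratio of 0.21, and the intervals did not overlap, although the mutant FPKM itself lay above its own interval. This was the only one of the 20 member values outside its interval. *Junb*, a relative that can hold back Jun activity, on chromosome 8 from 87500808 to 87502647, had 4.51 FPKM (3.56 to 5.25) and 5.43 FPKM (4.42 to 5.76), a log2 ratio of 0.26 with overlapping intervals.

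*Fos*, the classical partner of Jun, on chromosome 12 from 86814851 to 86818219, had 12.6 FPKM in control nerve (10.6 to 13.06) and 15.1 FPKM in mutant nerve (12.98 to 15.2), a log2 ratio of 0.26. Its intervals overlapped by a narrow margin. *Fosb*, on chromosome 7 from 19888045 to 19895394, had 0.29 FPKM in control nerve (0.19 to 0.39) and 0.51 FPKM in mutant nerve (0.38 to 0.64). That was the largest ratio of the 10 genes, 1.75-fold between the FPKM values as listed. The log2 ratio used for calls was 0.64, a smaller fold change, because a constant was added to each FPKM before it was computed. The intervals overlapped, and the FPKM values stand for about 31 and 78 fragments on a transcript of 3782 bases. *Fosb* passed the fold change of 1.5 when the minimum of 1 FPKM was dropped, which made it the only member to do so. *Fos* was thus present at far higher levels than *Fosb* in both genotypes, and it took up 77.97% of the summed FPKM of the 4 genes of the Fos family in control nerve and 76.8% in mutant nerve.

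Of the Egr factors, *Egr1*, on chromosome 18 from 35020861 to 35024610, had 7.57 FPKM (6.60 to 8.14) in control nerve and 9.30 FPKM (8.26 to 9.76) in mutant nerve, a log2 ratio of 0.29 with intervals just apart. *Egr2*, on chromosome 10 from 67000617 to 67004936, was low at 0.37 FPKM (0.23 to 0.50) and 0.38 FPKM (0.26 to 0.50), or about 30 and 45 fragments. Its intervals overlapped, and a difference was not detectable at this depth (log2 ratio 0.042). The Schwann cell markers were low as well, of which 2 of 5 met the minimum. The highest of them, *Cdh19*, had 7.85 FPKM in control nerve and 7.77 FPKM in mutant nerve. *Egr1* made up 93.6% of the summed FPKM of the Egr family in control nerve and 92.9% in mutant nerve.

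*Nr4a1* had the largest ratio of the 8 genes above 1 FPKM. It lies on chromosome 15 from 101097277 to 101105225 and had 7.14 FPKM (6.04 to 7.65) in control nerve and 9.65 FPKM (8.92 to 10.4) in mutant nerve, which is 1.35-fold higher (log2 ratio 0.43). The intervals were apart, and 78.3% of all genes tested had a lower ratio. *Dusp1*, on chromosome 17 from 26642536 to 26645417, followed with 11.2 FPKM (9.30 to 11.6) and 14.6 FPKM (12.4 to 14.7), which is 1.31-fold higher (log2 ratio 0.38), with intervals apart.

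*Ier2*, a small nuclear protein gene on chromosome 8 from 87185230 to 87186751, had 6.65 FPKM (5.16 to 7.49) and 7.30 FPKM (5.79 to 7.35), a log2 ratio of 0.13. *Atf3*, a stress-responsive bZIP factor that marks injured neurons and that the integrated stress response also switches on, lies on chromosome 1 from 192994176 to 193007212. It was the only member below its control value, with 3.76 FPKM (2.97 to 4.40) in control nerve and 3.504 FPKM (2.76 to 4.47) in mutant nerve, a log2 ratio of −0.10. For both genes the intervals of the libraries overlapped.

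Across the 8 genes above 1 FPKM, the intervals were apart for 4 (*Jun*, *Egr1*, *Nr4a1* and *Dusp1*), all higher in the mutant, and they overlapped for the other 4. Over all genes tested, the intervals were apart in the higher direction for 30.0% and in the lower direction for 22.3%, so an interval that does not overlap was common between these libraries. The intervals do not cover variation between animals.

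**Figure D3:**
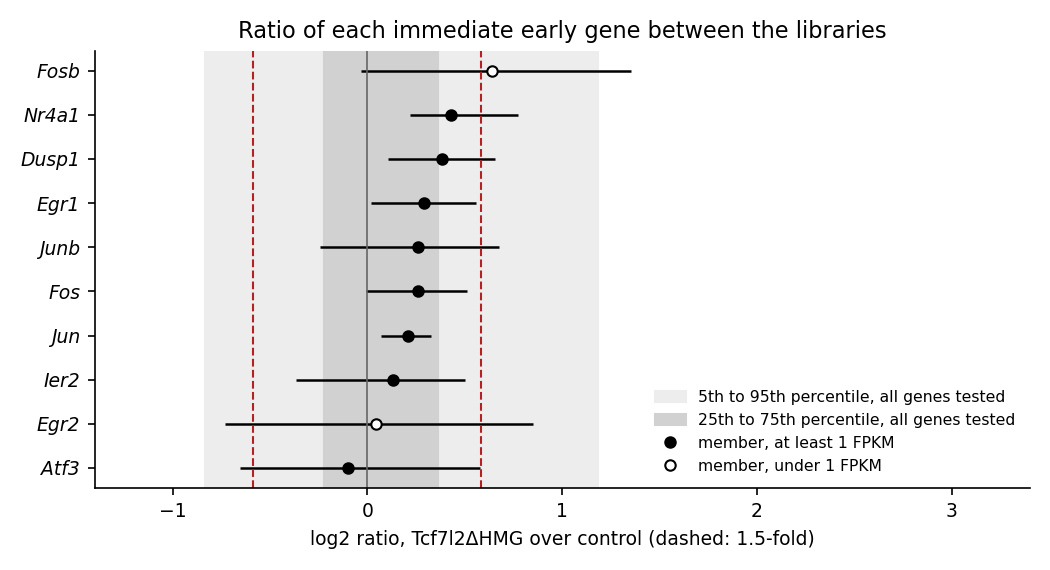
Log2 ratio of *Tcf7l2*ΔHMG to control for each of the 10 genes (points), with lines from the lowest to the highest ratio that the Cufflinks intervals allow, open points for members under 1 FPKM, and grey bands for the spread of all genes tested. All 8 filled points lie inside the dashed lines at a fold change of 1.5.

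The libraries bear on these values in several ways. From the interval bounds of short unnamed rows, the depth was read as 27619000 fragments for control and 39933000 for mutant nerve, so 3 fragments on 1 kb correspond to 0.11 and 0.075 FPKM. All 10 genes had the same position in both tables and no other row within 1000 bases, but *Fosb*, *Atf3* and *Nr4a1* had a reference row in the control table and a row of the library's own assembly in the mutant one. The other 7 had reference rows in both, and the part of this in the ratios was not tested. Of named rows above 0 FPKM, 7.26% in control and 8.64% in mutant nerve lay outside their own interval, among them several genes named below. Unnamed rows held 70.7% of the summed FPKM in control nerve and 80.7% in mutant nerve. Rescaling all rows to a common sum moved the median of all genes to −0.63 and that of the 8 members to −0.40. Relative to the median of all genes, the members stood at 0.21 as deposited and 0.23 after that rescaling. Under it *Fosb* alone of the 10 stayed above 0.

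The closest relatives of the members, which were named whatever their values, were compared next. *Jund*, the member of the Jun family that is made without a stimulus in many cells, had 31.7 FPKM in control nerve and 47.9 FPKM in mutant nerve, a log2 ratio of 0.593 beside the cutoff of 0.585, and its FPKM lay above its own interval in both libraries. It made up 43.2% of the summed Jun family FPKM in control nerve and 49.7% in mutant nerve, and the share of *Jun* was 50.7% and 44.7%. *Fosl2* had 3.26 and 4.04 FPKM (log2 ratio 0.30), and *Fosl1* was listed at 0 in both libraries.

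*Nr4a2* had 1.65 and 2.32 FPKM (log2 ratio 0.47) and *Nr4a3* 0.85 and 1.12 FPKM (0.36), both with overlapping intervals, and *Nr4a1* held 74.1% and 73.7% of the family sum. *Egr3* had 0.13 and 0.27 FPKM, again with overlapping intervals. The genes known best from neurons went different ways. *Arc*, which encodes a protein of synapses, had 7.56 FPKM in control nerve and 3.24 FPKM in mutant nerve (log2 ratio −1.20), and 2.73% of all genes had a lower ratio. *Npas4*, a factor induced by neuronal activity, had 0.047 FPKM (0.011 to 0.088) in control nerve and 0.35 FPKM (0.24 to 0.45) in mutant nerve, both below the minimum of 1 FPKM.

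A wider list held 47 other genes of the rapid response. Of the 41 that met the minimum with status OK in both libraries, 12 passed a fold change of 1.5 as higher in the mutant. Another 4 passed as lower and 25 did not pass, with a median log2 ratio of 0.36. With any status allowed, 13 passed as higher. Of all genes tested, 15.4% passed as higher and 8.52% as lower. With all rows rescaled, 3 of the list passed as higher and 14 as lower, beside 485 and 7182 of 13208 genes tested. The largest ratios of the list, as deposited, were those of *Cebpb*, a bZIP factor of inflammation and growth, with 3.53 and 10.1 FPKM (log2 ratio 1.49), *Arl4d*, a small GTPase, with 2.64 and 6.84 FPKM (1.34), and *Klf2*, a zinc-finger factor known from endothelium and blood cells, with 6.69 and 16.3 FPKM (1.27). *Arc* was the largest in the other direction.

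Partners and regulators of the members were described next. The counts in these lists stand beside 15.4% of all genes that passed as higher and 8.52% as lower. Of the 14 AP-1 and bZIP partners, which share *Jund*, *Fosl1*, *Fosl2* and *Maff* with the wider list, 12 were above 1 FPKM, 3 passed as higher and 2 as lower. *Maf* had 19.1 and 31.9 FPKM (log2 ratio 0.74), *Batf3* 10.4 and 6.46 FPKM (−0.68) and *Maff* 5.53 and 3.55 FPKM (−0.63). Among 12 genes of the list of SRF and CREB activators, 1 passed, as lower. This was *Elk1*, a partner of SRF that the extracellular signal-regulated kinase (ERK) phosphorylates, with 11.9 and 7.28 FPKM (−0.70), and the list median was 0.12.

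The ERK feedback list, made up of phosphatases, inhibitors and the transcription factors *Etv4* and *Etv5*, had a median log2 ratio of −0.096 over 14 genes. As deposited, 4 of them lay above 0 and 10 below, beside 54.6% of all genes above 0. *Dusp2*, with 1.71 and 0.94 FPKM (−0.80), was the only one past the cutoff, and its intervals overlapped. The Egr corepressors had a ratio of −0.29 (*Nab1*, 10.04 and 8.21 FPKM) and 0.52 (*Nab2*, 5.49 and 7.93 FPKM). Of 6 genes of the ATF4 stress response, which also induces *Atf3*, *Sesn2* passed as higher, with 3.62 and 6.38 FPKM (0.80), and the median was 0.058. Heat shock genes, which also respond to handling, had a median of −0.12 over 8 genes, and *Hspb1*, with 41.9 and 71.8 FPKM (0.78), was the only one past the cutoff. The *Hspb1* FPKM lay above its own interval in both libraries (30.6 to 37.3 and 53.6 to 60.5). *Hspa1a* and *Hspa1b*, near-identical copies, are inducible heat shock genes and each lacked a Cufflinks status of OK in 1 library, so they are outside that median. *Hspa1a* was listed at 2.07 and 3.48 FPKM (0.72) and *Hspa1b* at 1.82 and 2.87 FPKM (0.63), both above a fold change of 1.5 with intervals apart.

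**Figure D4:**
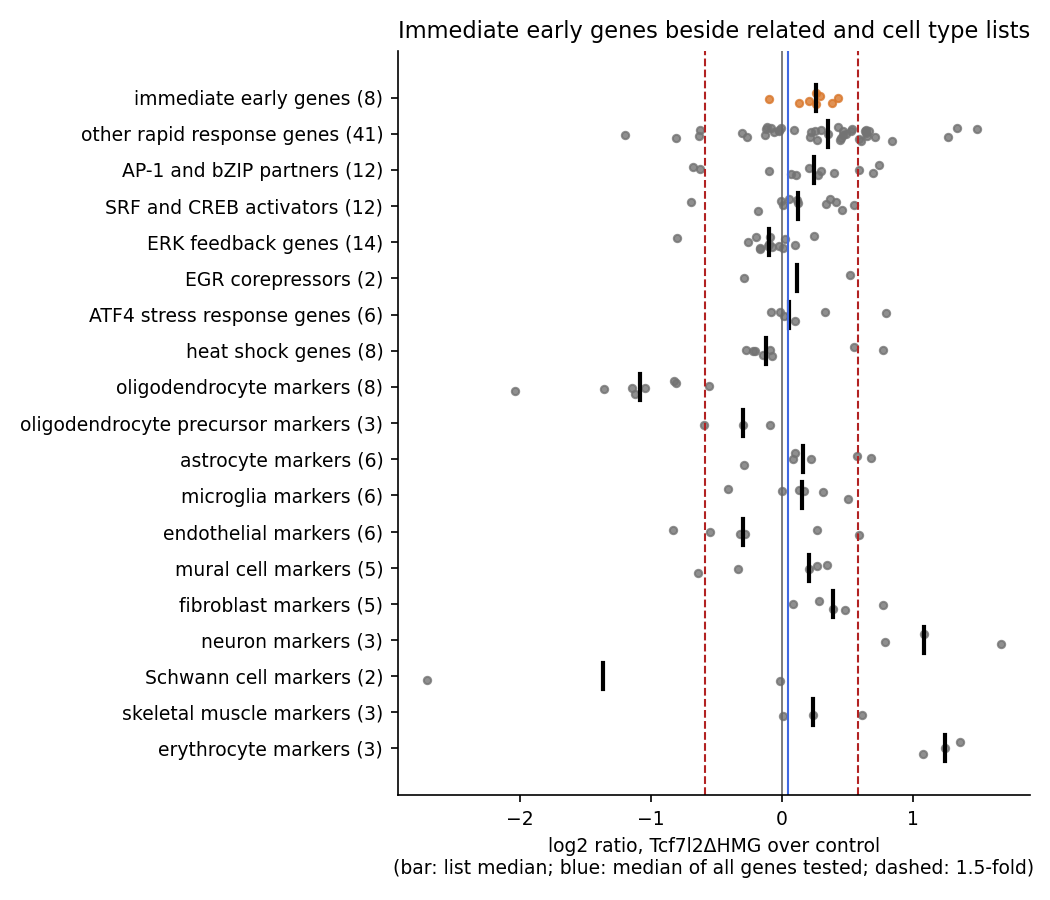
Log2 ratios of *Tcf7l2*ΔHMG to control for the genes of each list above 1 FPKM with status OK in both libraries (points, number in brackets). A bar marks the list median, a blue line the median of all genes and dashed lines a fold change of 1.5. The immediate early genes (orange) sit between −0.10 and 0.43, the other rapid response genes spread from −1.20 to 1.49, and the 8 oligodendrocyte markers lie between −2.04 and −0.55.

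The level of cell type markers also differed between the libraries, in both directions, and its part in the ratios of the members was not tested. In bulk tissue, fewer cells of a type and less RNA per cell cannot be told apart. Marker values here and below are as deposited, where 54.6% of all genes tested were higher in the mutant. Bringing both tables to the same total over every row moved the median of all genes to −0.63, and marker directions were not examined under that scaling. All 8 oligodendrocyte markers were lower in the mutant, 7 of them past the cutoff, which 8.52% of all genes passed as lower. The summed level of these 8 was 14671 FPKM in control nerve and 6473 FPKM in mutant nerve. The summed level of 6 astrocyte markers was 5050 and 5963 FPKM, with 5 of 6 higher and *Gfap* at 4059 and 4729 FPKM. That of 6 microglia markers was 103.3 and 119.5 FPKM, again with 5 of 6 higher and *Csf1r* at 39.0 and 48.6 FPKM. Their median log2 ratios were 0.16 and 0.15, beside 0.26 for the members. For 5 fibroblast markers, all higher, the median was 0.39, with *Col1a2* at 335 and 438 FPKM. The 6 endothelial markers had a median of −0.30 and the 5 mural cell markers one of 0.21, and both lists went both ways. Of the endothelial markers 2 were higher and 4 lower, with *Cldn5* at 64.1 and 43.7 FPKM and *Cdh5* at 20.9 and 31.6 FPKM, and of the mural cell markers 3 were higher and 2 lower, with *Rgs5* at 63.0 and 40.5 FPKM and *Kcnj8* at 7.35 and 9.39 FPKM. The 3 OL precursor markers were lower, 1 of them past the cutoff, with *Gpr17* at 235 and 156 FPKM. The other precursor markers differed less. *Cspg4* had 9.93 and 8.06 FPKM (log2 ratio −0.30), and *Pdgfra* had 35.9 and 33.6 FPKM (−0.093) with overlapping intervals.

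Markers of neurons, blood, muscle and photoreceptors were also measured. The summed level of 5 neuron markers was 8.19 and 16.8 FPKM, and *Snap25*, the highest, had 5.92 and 10.3 FPKM. *Rbfox3* met the minimum through the mutant library alone, with 0.66 and 1.51 FPKM. Of the erythrocyte markers, *Hba-a1* had 88.7 and 228 FPKM, and *Alas2*, at 0.61 and 1.39 FPKM, likewise met the minimum through the mutant library alone. *Acta1*, the highest of the muscle markers, had 10.5 and 12.4 FPKM. No photoreceptor marker reached 1 FPKM in either library. The level of no member can be assigned to 1 of these cell types from these libraries.

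**Figure D5:**
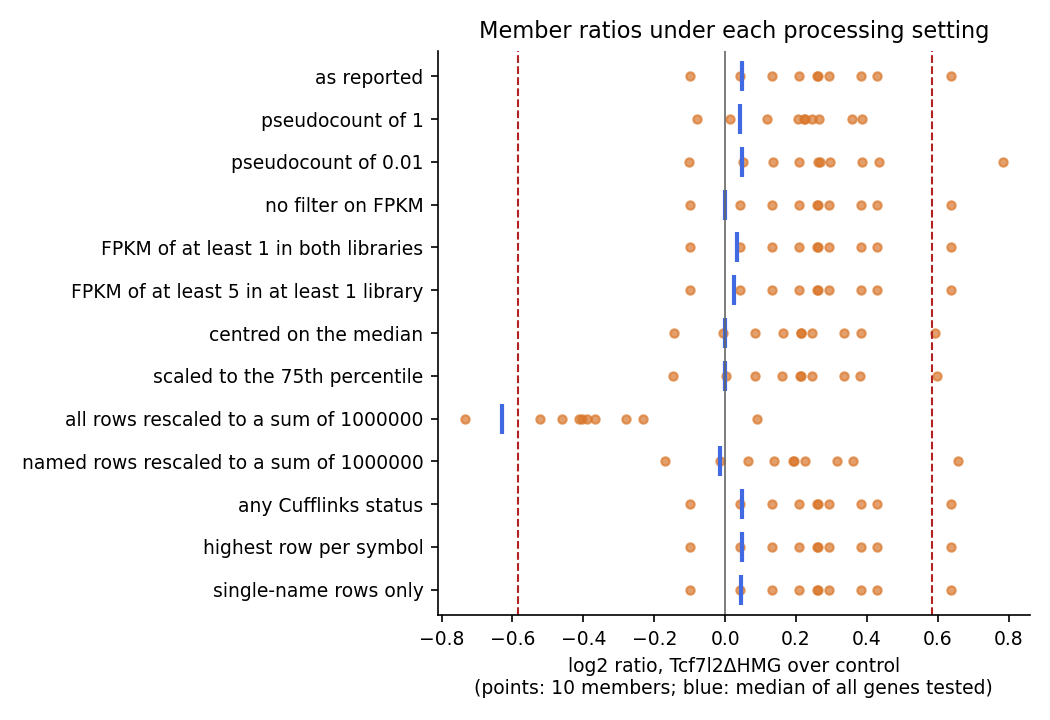
Log2 ratios of the 10 immediate early genes (points) under each processing setting, with a blue mark at the median of all genes tested and dashed lines at a fold change of 1.5. The rightmost point is *Fosb* in every setting but the pseudocount of 1, where it is *Nr4a1*, and rescaling all rows to a sum of 1000000 moves the members and the median of all genes to the left together.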

How the data were processed

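RNA from P12 optic nerves of 1 control and 1 *Tcf7l2*ΔHMG library was sequenced, and per the labels the submitters' processing notes name TopHat, Cufflinks and mm9. Versions are not given in the sources used here. The deposited tables hold FPKM, computed by the authors with Cufflinks, with interval bounds and a status. Comma-merged names were split and rows of 1 symbol summed. Positions are those of the tables with starts counted from 1. Promoter windows are from RefSeq (GRCm38.p6), and transcript lengths for the fragment estimates are the longest in GENCODE M21. Depth was the smallest at which interval bounds of unnamed rows shorter than 100 bases were whole fragments within 0.005 (263 bounds for control, 616 for mutant).

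With 1 library per genotype no test was run. Calls are a fold change above 1.5 on log2(FPKM + 0.1), with at least 1 FPKM in at least 1 library and status OK in both. All 10 members, *Tcf7l2* and 8 close relatives are named, with the largest past the cutoff (up to 4) of each other list and the highest marker of each cell type. A few genes that this rule names are not reported here. *Nab1*, *Nab2*, *Hspa1a*, *Hspa1b*, *Etv4*, *Etv5*, *Cdh5*, *Kcnj8*, *Pdgfra*, *Cspg4*, *Rbfox3* and *Alas2* were added after their values were seen, and so was the choice of promoters printed. Members and lists were chosen with earlier results of these data known. Alternatives were other pseudocounts, minima, scalings, row rules and cutoffs. The calling steps were run on simulated libraries with counting error only, no variation between animals and planted changes larger than the cutoff. Such a run checks the steps, not how reliable a call between these libraries is. Protein comparisons were not run. Python 3.11.15, numpy 2.4.6, pandas 2.3.3 and matplotlib 3.10.9 were used.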

Additional observations from a re-analysis of the deposited data

How the results depend on the processing

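The 6 alternatives on minima, status and row rules left all 10 member ratios as they were. Of 60 ratios under the 6 that change the pseudocount or the scale, 52 stayed within the range that the Cufflinks intervals allow. The other 8 all came from rescaling all rows to a sum of 1000000, which gave −0.40 for *Fos*, −0.46 for *Jun*, −0.39 for *Junb*, −0.37 for *Egr1*, −0.52 for *Ier2*, −0.73 for *Atf3*, −0.23 for *Nr4a1* and −0.28 for *Dusp1*, medians of −0.40 for the members and −0.29 for the other rapid response genes, and 1 member (*Atf3*) past the cutoff as lower in place of 0. By construction, that scaling follows the unnamed rows. *Fosb* made 1 member past the cutoff as higher, in place of 0, with no minimum and with named rows rescaled to a sum of 1000000. Of the other rapid response genes, the 12 higher became 3 with all rows rescaled, 6 with named rows rescaled and 3 above a fold change of 2. The 4 lower became 2 with a pseudocount of 1, 14 with all rows rescaled and 1 above a fold change of 2. Over all genes, the 2185 higher became 1290 with a minimum of 5 FPKM, 485 with all rows rescaled and 975 above a fold change of 2, and the 1210 lower became 7182 and 522 in the last 2 of these. *Egr2* fell below 0 when ratios were centred on the median or named or all rows were rescaled. No paired analysis was possible because each genotype had 1 library, and none could be left out.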
